A study of Neocallimastix californiae and Anaeromyces robustus with 43 samples.

Results

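The comparison set Neocallimastix californiae grown on Avicel against the same fungus grown on cellobiose. Its members are 6 RNA-seq libraries, 3 on Avicel and 3 on cellobiose, out of 23 libraries of this fungus and 43 in the whole series, and they were chosen by the carbon source named in each library's title. N. californiae, labelled G1, is an anaerobic gut fungus of plant-eating mammals. All cultures were whole-organism samples of this 1 fungus, grown in about 10 ml of Medium C at 39 °C and harvested in exponential growth at a gas pressure of at least 5 psi, and the carbon source was the only stated difference between them. The libraries were made with a stranded mRNA kit. The other 17 libraries of this fungus were grown on glucose, maltose, reed canary grass, switchgrass, corn stover or alfalfa stems, and they served to estimate spread and to describe the same transcripts elsewhere. The labels do not say whether replicates were separate cultures, so the p-values cover only how much these libraries vary, and that variation may be technical.

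Avicel is microcrystalline cellulose, an insoluble chain of glucose units, and cellobiose is the soluble disaccharide that forms its repeating unit and is released when cellulases cut the chain. Anaerobic gut fungi degrade cellulose with secreted enzymes, many of them docked into large complexes called cellulosomes, and import or further split the short sugars that result. They alternate between swimming zoospores and a growing body attached to plant particles. The question of the comparison is therefore how transcript abundance differs between a solid substrate that must be digested outside the cell and its own soluble product. The deposited tables do not pair transcript identifiers with gene names, so no function is given for any transcript, and lists of cellulases, transporters or cellulosome parts could not be matched.

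The Avicel libraries held 4833975 to 6615754 expected counts and the cellobiose libraries 4923118 to 8983303. The rank correlation between Avicel libraries across tested transcripts was 0.958 to 0.966. Cellobiose replicates 1 and 2 correlated at 0.959, but cellobiose replicate 3 correlated at 0.882 and 0.89 with them and at 0.91 to 0.914 with the Avicel libraries. The median SD between replicates, in log2 of CPM (counts scaled to a common library size), was 0.273 on Avicel and 0.39 on cellobiose, and 0.248 between cellobiose replicates 1 and 2 alone. Replicate 3 of cellobiose therefore stood apart from its group, and the main results are given with and without it. Chi-square statistics between replicates were 5.33 to 30.4 per degree of freedom, so no pair agreed within sampling noise.

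More transcripts were called lower than higher on Avicel, and the called falls were larger at the median than the called rises. Of 14800 tested transcripts, 991 (6.7%) were called higher on Avicel and 2036 (13.8%) lower, which together are 20.5% of those tested (edgeR quasi-likelihood test, adjusted p under 0.05; 4919 had an unadjusted p under 0.05). The called rises had a median log2 fold change of 1.1 and the called falls one of -2.21, against a median of -0.051 over all tested transcripts. Low transcripts pass the test only with a large fold, so the medians of the calls also depend on transcript level. Past 2-fold, 549 were higher and 1777 lower. Past 32-fold, 44 were higher and 48 lower, so the 2 directions were nearly even among the largest changes. The Avicel and cellobiose libraries did not overlap in CPM for 5370 transcripts, 36.3% of those tested. Whole cultures were extracted, so fewer cells of one kind and less of a transcript per cell cannot be told apart.

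Without cellobiose replicate 3 the same test called 1406 (9.54%) higher and 2404 (16.3%) lower of 14737, or 25.9%. Of the calls made with all libraries, 799 higher and 1884 lower ones were called in the same direction without that replicate, and none turned round. A further 607 higher and 520 lower calls appeared, and 192 higher and 152 lower ones were lost. Past 32-fold the counts were then 93 higher and 72 lower. The counts depended on other libraries too. Leaving out Avicel replicate 1, 2 or 3 gave 536, 1022 and 529 higher and 1352, 1218 and 1071 lower. Leaving out cellobiose replicate 1 or 2 gave 522 and 920 higher and 993 and 1337 lower. Scaling by library size alone shifted the median log2 fold change by -0.32 and gave 438 higher and 3210 lower, and all other directions are on the trimmed mean of M-values (TMM) scale.

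Transcripts were eligible to be named when called with and without cellobiose replicate 3, not overlapping between the groups and at 10 CPM or more where higher. The largest rise among them was that of Locus881v1rpkm148.44, which was nearly silent on cellobiose. It stood at 206.3, 196.2 and 194.6 TPM (transcript abundance corrected for length and summing to the same total in each library) in the Avicel libraries, against 1.98, 0.99 and 0.39 TPM in cellobiose replicates 1, 2 and 3. The groups were far apart, and cellobiose replicate 3 was the lowest library of all. These values rest on 2777, 2405 and 3387 counts on Avicel and on 27, 13 and 9 counts on cellobiose. The log2 fold change was 7.84 ± 0.43 (SE; edgeR adjusted p = 4.04e-10), and 7.30 ± 0.38 without cellobiose replicate 3 (edgeR adjusted p = 1.95e-10). Locus881v1rpkm148.44 was also present on other carbon sources, where it averaged 193 ± 14.5 TPM on maltose, 59.7 ± 2 TPM on glucose (SD, n = 3 each) and 382 ± 14.7 TPM on reed canary grass, and 19 ± 4.33 TPM on alfalfa stems. Cellobiose was the lowest of the 8 carbon sources.

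The eligible transcript with the largest gain in TPM was Locus308v1rpkm754.17. It stood at 5544, 8137 and 5121 TPM on Avicel, against 901.6, 198 and 2823 TPM on cellobiose. The groups did not overlap, but the cellobiose libraries were spread widely, and replicate 3 was the nearest to Avicel. The log2 fold change of Locus308v1rpkm754.17 was 2.70 ± 0.78 (edgeR adjusted p = 0.0213) and 3.96 ± 0.87 without cellobiose replicate 3 (edgeR adjusted p = 0.00367). This call was lost without either of cellobiose replicates 1 and 2, without either of Avicel replicates 1 and 2, without the filter on low counts, with library size alone and with only the 6 libraries in the fit, at adjusted p of 0.0506 to 0.101 by edgeR. The other high level was on alfalfa stems, at 4290 ± 1050 TPM (SD, n = 3). Its effective length, read from the ratio of expected counts to TPM, was 0.0862 of the median transcript's, and such a short length raises TPM. In TMM-scaled CPM Locus308v1rpkm754.17 stood at 1470, 1850 and 1260 on Avicel and at 158, 37 and 504 on cellobiose.

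Among the transcripts that fell, Locus3084v1rpkm23.89 had the largest fold change of those eligible. It stood at 0.3, 0.55 and 0.08 TPM on Avicel, which are 3, 5 and 1 counts, against 16.7, 40.9 and 137.6 TPM on cellobiose. Every cellobiose library lay well above every Avicel library, and replicate 3 was the farthest from Avicel. The log2 fold change was -7.39 ± 1.33 (edgeR adjusted p = 0.00123), and -6.39 ± 1.33 without cellobiose replicate 3 (edgeR adjusted p = 0.00288). Locus3084v1rpkm23.89 varied from library to library on the soluble sugars, at 3.75, 56.5 and 28.2 TPM on maltose and at 3.95, 3.07 and 19.6 TPM on glucose. On plant biomass it stood at 3.75, 17.4 and 8.35 TPM on reed canary grass, a mean of 9.85 TPM that lay above the 8.89 TPM on glucose. It averaged 0.73 ± 0.32 TPM on alfalfa stems and 0.457 ± 0.603 TPM on corn stover (SD, n = 3 each), and 0.725 ± 0.445 TPM on switchgrass (SD, n = 2).

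The largest loss in TPM was that of Locus1135v1rpkm104.11, at 183.1, 236.6 and 169.7 TPM on Avicel, against 1632, 1016 and 326.1 TPM on cellobiose. Cellobiose replicate 3 lay close to the Avicel libraries, and the other cellobiose libraries lay far above them. The log2 fold change of Locus1135v1rpkm104.11 was -1.74 ± 0.49 (edgeR adjusted p = 0.0177) and -2.14 ± 0.44 without cellobiose replicate 3 (edgeR adjusted p = 0.00175). The call was lost without Avicel replicate 3 (edgeR adjusted p = 0.0766) and without cellobiose replicate 1 (edgeR adjusted p = 0.129). The transcript was highest on maltose and glucose, at 2630 ± 1060 and 2450 ± 1120 TPM (SD, n = 3 each). There too replicate 3 was the lowest library, at 1423 TPM on maltose and 1169 TPM on glucose. The effective length of Locus1135v1rpkm104.11 was 0.0292 of the median, and its counts were 77, 85 and 80 on Avicel and 528, 279 and 223 on cellobiose.

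**Figure D1:**
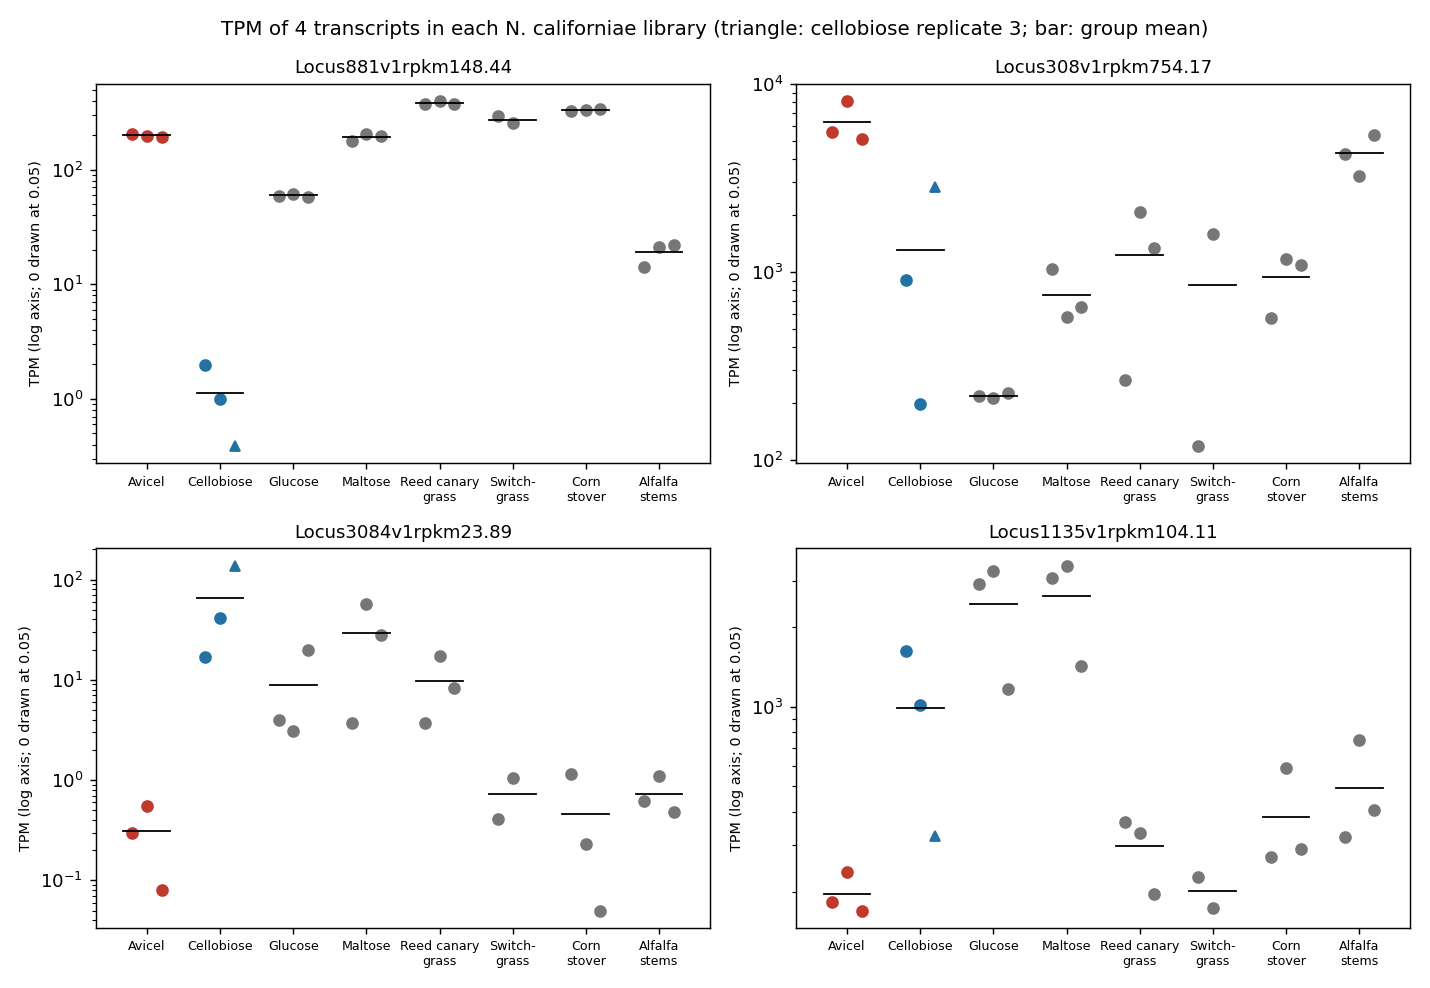
TPM (log axis) of the 4 named transcripts in each library of N. californiae, by carbon source; points are libraries, the triangle is cellobiose replicate 3 and bars are group means. Locus881v1rpkm148.44 is lowest on cellobiose (1.12 TPM on average, against 199 TPM on Avicel), whereas Locus1135v1rpkm104.11 is high on the sugars and low on Avicel (196 TPM) and on the grasses.

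The eligible transcripts numbered 553 higher and 650 lower. The 10 with the largest gain in TPM together held 5.36% of all TPM on Avicel and 2.15% on cellobiose, with log2 fold changes of 0.984 to 6.30. The 10 with the largest loss held 0.0901% on Avicel and 0.447% on cellobiose, with log2 fold changes of -2.96 to -0.824. These 10 rises stood at 2110 to 13400 TPM on Avicel, and the 10 falls at 307 to 991 TPM on cellobiose. Both were chosen on these libraries, so the values describe them only.

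Rises were also the more frequent call among abundant transcripts when all transcripts were ordered by their mean TPM in the 17 libraries of the other carbon sources, a level that the comparison did not use. These values are on the TMM scale. Among the 250 tested transcripts over 1000 TPM, 58 (23.2%) rose and 1 (0.4%) fell on Avicel, against 6.7% and 13.8% of all tested transcripts. Their median log2 fold change was 0.37, but 0.054 with library size alone. Of the 731 between 100 and 1000 TPM, 141 (19.3%) rose and 68 (9.3%) fell, but 82 rose and 157 fell with library size alone. Of the 2800 between 10 and 100 TPM, 309 (11%) rose and 458 (16.4%) fell. Of the 8020 between 1 and 10 TPM, 384 (4.79%) rose and 1228 (15.3%) fell. Of the 2999 under 1 TPM, 99 (3.3%) rose and 281 (9.37%) fell. Under 1 TPM the balance turned to 282 rises and 244 falls in a fit of the 5 compared libraries other than cellobiose replicate 3. Low transcripts had to pass the filter in some group, so those under 1 TPM are a selected part of the low transcripts.

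Without cellobiose replicate 3 the transcripts over 1000 TPM gave 57 higher and 1 lower. Higher calls outnumbered lower ones in each fit tried, but their number varied. It was 14, 92 and 28 without Avicel replicate 1, 2 or 3 and 19 without cellobiose replicate 1. With library size alone it was 17, against 7 lower calls, and with the 6 compared libraries alone 33, against 5. Among the top 100 by this level, edgeR called 26 higher and 0 lower, with and without cellobiose replicate 3, and DESeq2 with all libraries gave 37 and 1. At an unadjusted p under 0.05 edgeR gave 46 higher and 1 lower with all libraries. The 26 became 7 with library size alone, 15 with the 6 libraries, 6, 41 and 11 without Avicel replicate 1, 2 or 3 and 9 without cellobiose replicate 1.

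**Figure D2:**
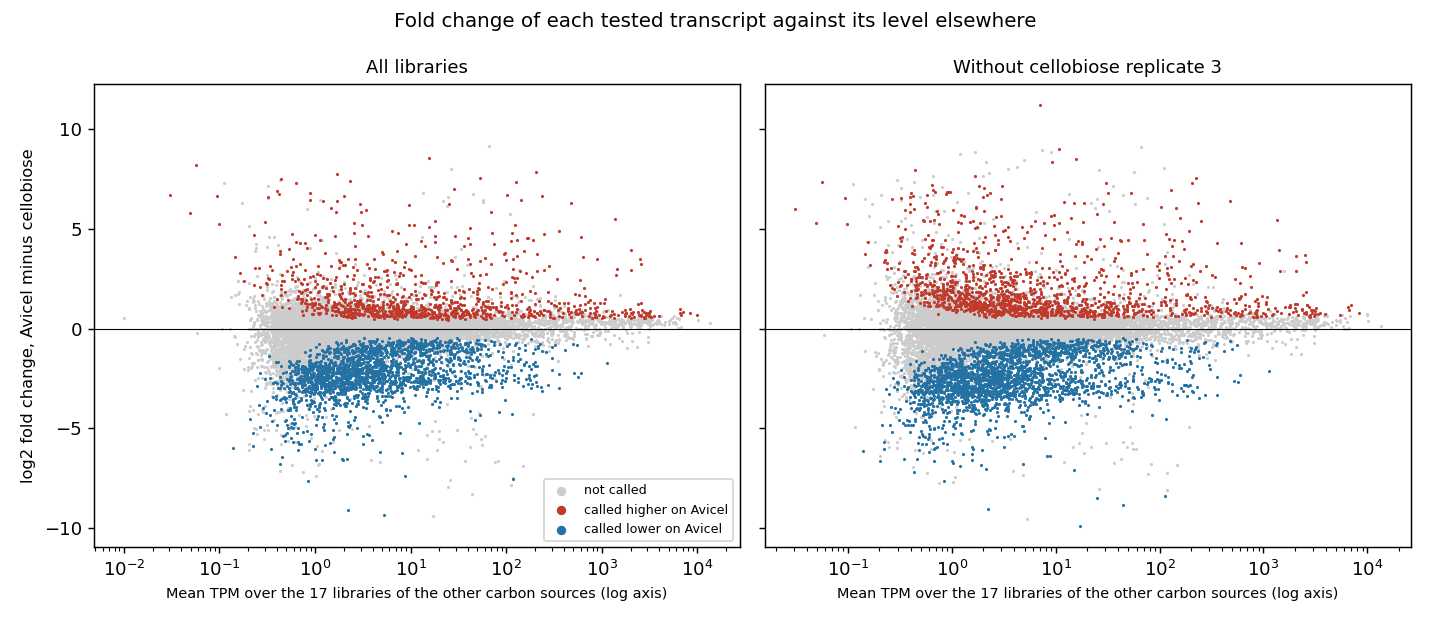
Each tested transcript by its mean TPM over the 17 libraries of the other carbon sources (log axis) and its log2 fold change, Avicel minus cellobiose, with all libraries (left) and without cellobiose replicate 3 (right); red and blue points were called higher and lower. Above 1000 TPM the calls are almost all higher (58 higher and 1 lower on the left).

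The called falls did not thin out evenly with size but had a second peak at a larger fold. Without cellobiose replicate 3, the number of called falls per 0.25 of log2 fold change was 170 between -1.25 and -1 and 114 between -1.75 and -1.5, and climbed again to 255 between -3 and -2.75. With all libraries the second peak was at 231, between -2.75 and -2.5, and the dip at 108, between -1.5 and -1.25. The called rises were most numerous between 0.75 and 1, at 236, and thinned out from there. Low transcripts pass the test only with a large fold, but the 2 peaks of falls were also there at a mean of 10 CPM or more over the 17 other libraries. They held 134 between -1 and -0.75 and 89 between -3 and -2.75, with 50 between -1.75 and -1.5. At that level the peak of small falls was the taller. After these values were seen, the 1397 transcripts that fell by 1.75 to 3.5 on the log2 scale without cellobiose replicate 3 were taken as a set, and the 459 of them with a mean of 10 CPM or more over the 17 other libraries were followed there. No test was made on this set.

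The transcripts of the set moved together across the carbon sources it was not chosen on. Across the 17 other libraries, the correlation of a transcript's log2 CPM with the set's median profile had a median of 0.94, and it exceeded 0.9 for 314 of the 459, or 68.4%. The slope against that profile had quartiles of 0.71, 1.1 and 1.2, so the size of the movement differed between transcripts. Of the 459, 381 (83%) were also called lower on plant biomass than on glucose and maltose, against 30.8% of all transcripts tested there, 34.9% of the smaller falls and 19.7% of those not called. Among 430 transcripts with a called fall smaller than 1.5 on the log2 scale, held to their own median profile, the median correlation was 0.42 and 3 exceeded 0.9. Among 771 called higher it was 0.64, and 116 exceeded 0.9. Among 4351 not called it was 0.25, and 6 exceeded 0.9. The set was chosen for large falls, and the other groups were not matched to it in size of change. Transcripts that change more can correlate better with a profile, so these groups do not show whether the set is unusual for its size of change. The 17 libraries share carbon sources, so the correlations are descriptions.

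The set held 0.284%, 0.299% and 0.265% of all TPM in the Avicel libraries, against 2.23%, 1.84% and 1.08% in cellobiose replicates 1, 2 and 3. Elsewhere it was largest on the soluble sugars, at 3.08% ± 0.771 on maltose and 2.84% ± 0.935 on glucose (SD, n = 3 each). It held 1.18% ± 0.195 on alfalfa stems, 0.862% ± 0.168 on corn stover, 0.804% ± 0.0756 on reed canary grass (n = 3 each) and 0.591% ± 0.0255 on switchgrass (n = 2). Avicel was the lowest carbon source for the set, below every library on plant biomass, but the set was chosen for low values in these Avicel libraries, which favours that place. In this share of TPM, replicate 3 was the lowest library within each of the 7 carbon sources that have a replicate 3, Avicel included. On cellobiose that place is favoured by the choice, because the set was called for high values in replicates 1 and 2 alone. The Avicel libraries differed little, and by the set's median log2 CPM replicate 2 was the lowest there, at -2.11 against -1.86 and -1.88. Replicate 3 held 1.76% on glucose, against 3.39% and 3.37% in replicates 1 and 2, and 2.2% on maltose, against 3.64% and 3.4%. On plant biomass it held 0.724% on reed canary grass, against 0.874% and 0.815%, 0.674% on corn stover, against 0.917% and 0.996%, and 1.03% on alfalfa stems, against 1.11% and 1.4%. What sets these libraries apart was not tested.

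**Figure D3:**
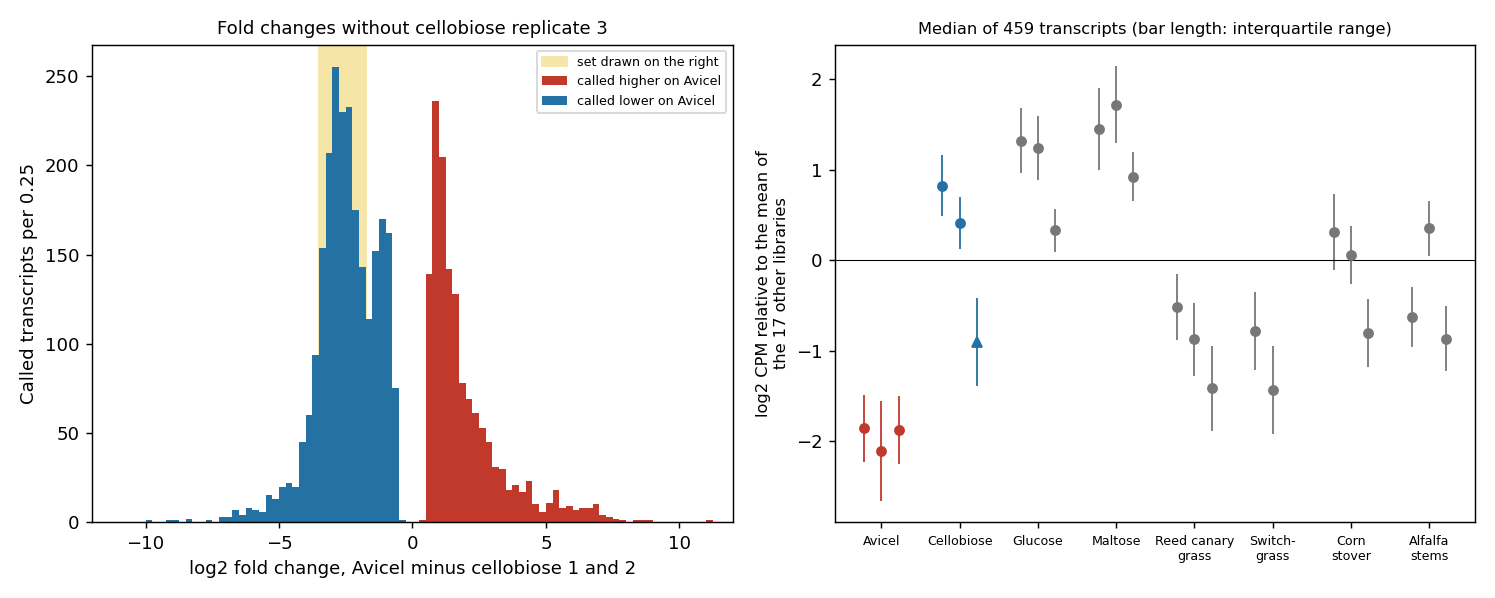
Left, number of called transcripts per 0.25 of log2 fold change (Avicel minus cellobiose replicates 1 and 2), with the range that defined the set shaded; right, the median log2 CPM of its 459 transcripts in each library relative to the mean of the 17 libraries of the other carbon sources, with bars as long as the interquartile range and a triangle for cellobiose replicate 3. The falls have a second peak of 255 between -3 and -2.75, and the set is at -1.86, -2.11 and -1.88 on Avicel, 0.825, 0.414 and -0.905 on cellobiose and up to 1.72 on maltose.

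Insoluble plant biomass against other soluble sugars offers a parallel contrast that shares no library with Avicel or cellobiose. In the 17 other libraries, 3868 transcripts were called higher and 4354 lower on plant biomass (the mean of reed canary grass, switchgrass, corn stover and alfalfa stems) than on glucose and maltose, which is 58.2% of 14130 tested (edgeR adjusted p under 0.05). Transcripts lower on plant biomass were mostly lower on Avicel as well when called: 1385 fell and 101 rose, or 31.8% and 2.32% of that class, and its median log2 fold change was -0.96. Transcripts higher on plant biomass followed less closely: 587 rose and 270 fell on Avicel, 15.2% and 6.98% of the class, with a median of 0.21. In the 5908 transcripts called in neither direction, 267 rose and 353 fell, with a median of 0.046. The class lower on plant biomass held 68% of all falls on Avicel, and the class higher on plant biomass held 59.2% of all rises.

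Without cellobiose replicate 3 the class lower on plant biomass gave 1735 falls and 84 rises, and the class higher on plant biomass gave 731 rises and 253 falls. Falls outnumbered rises in the class lower on plant biomass under each alternative fit. In the class higher on plant biomass, rises outnumbered falls except with library size alone, where 310 rose and 585 fell and the median turned to -0.12. The 1385 falls became 791, 732 and 557 without Avicel replicate 2, Avicel replicate 3 and cellobiose replicate 1, and the 587 rises became 347, 356 and 335 without Avicel replicate 1, Avicel replicate 3 and cellobiose replicate 1. The median of the class lower on plant biomass was -0.63 without cellobiose replicate 1.

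The classes also differed in their share of each library's counts. The class higher on plant biomass held 63.1%, 61.4% and 62.6% of the counts in the Avicel libraries, against 55.5%, 57% and 58.9% in the cellobiose libraries, so the groups did not overlap and cellobiose replicate 3 was the nearest to Avicel. The means were 62.4% ± 0.844 on Avicel and 57.1% ± 1.74 on cellobiose (SD, n = 3 each), and 56.2% on cellobiose without replicate 3. The class lower on plant biomass held 15%, 15.4% and 15.1% of the counts on Avicel, against 20.8%, 19.1% and 16.5% on cellobiose. For scale, that class held 5.91% to 12.3% of the counts on plant biomass and 22.5% to 28.9% on glucose and maltose. Both Avicel and cellobiose lay between plant biomass and the other sugars in this share, with Avicel on the side of plant biomass. The class was chosen for low values on plant biomass against those sugars, which favours their places at the ends.

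**Figure D4:**
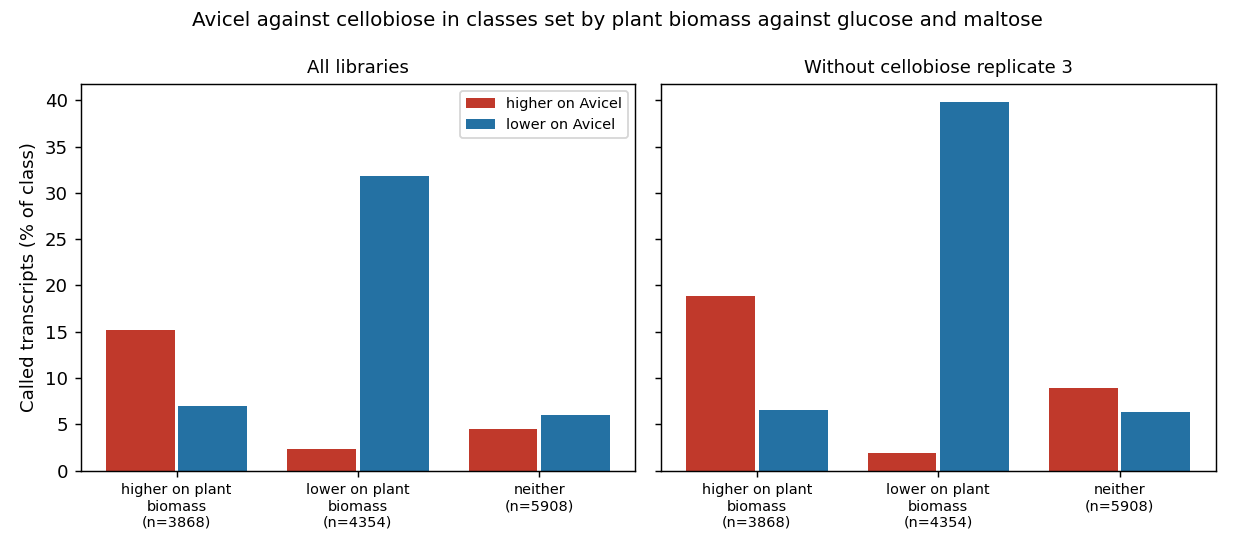
Percentage of transcripts called higher (red) and lower (blue) on Avicel than on cellobiose in 3 classes set by the 17 other libraries, with all libraries (left) and without cellobiose replicate 3 (right); n is the number of tested transcripts. In the class lower on plant biomass 31.8% fell and 2.32% rose, and in the class higher on plant biomass 15.2% rose and 6.98% fell.

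Among the 8 carbon sources Avicel itself was often the extreme. Of the 991 transcripts called higher, 651 (65.7%) had their highest group mean on Avicel, against 20.1% of all tested transcripts. Of the 2036 called lower, 1548 (76%) had their lowest group mean on Avicel, against 21.6% of all tested. Cellobiose was the lowest of the 8 for 203 (20.5%) of the transcripts called higher, against 6.8% of all tested. It was the highest for 203 (9.97%) of those called lower, against 6.34% of all tested. Cellobiose was thus also the extreme more often among the calls than among all tested transcripts. Calls were made on these group means, so extremes are favoured by the choice. Without cellobiose replicate 3, cellobiose was the lowest carbon source for 44.2% of the 1406 transcripts called higher, and Avicel was the highest for 62.2% of them. The shares over all tested transcripts were not computed without that replicate.

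Complete absence was rare. In all, 186 tested transcripts had no counts in any Avicel library, and 58 of them were called lower. Of those 186, 71 reached a mean of 1 CPM or more on cellobiose, with 16.9 CPM as the highest. In the other direction 67 tested transcripts had no counts in any cellobiose library, 12 were called higher, and 23 reached 1 CPM on Avicel, with 14.2 CPM as the highest. Of all tested transcripts, 13.8% were called lower and 6.7% higher. The absent transcripts were picked for no counts in a compared group, which favours a call. Without cellobiose replicate 3, 185 had no counts in the remaining cellobiose libraries, and 96 of those reached 1 CPM on Avicel.

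Where each library lay between the groups was read on transcripts it had not helped to choose. For each of the 6 libraries, the fit was repeated without it, and its position was taken on transcripts then called past 2-fold, with 0 at the mean of the cellobiose libraries left in and 1 at the mean of the Avicel libraries left in. The median position was 0.92, 0.92 and 0.95 for Avicel replicates 1, 2 and 3, against -0.045 and -0.0092 for cellobiose replicates 1 and 2 and 0.58 for cellobiose replicate 3. The third cellobiose library thus lay on the Avicel side of the middle, with quartiles of 0.26 and 0.82 over 3196 transcripts. Its position was 0.63 on the 1030 transcripts higher on Avicel and 0.56 on the 2166 lower on Avicel. Each library was placed on its own set of transcripts. For cellobiose replicates 1 and 2, these were 1306 and 1804 transcripts called with replicate 3 in the fit and in the mean set at 0. That choice favours transcripts on which replicate 3 resembled its group, so those 2 positions cannot be compared directly with the 0.58.

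That middle value hid different behaviour among transcripts. On the 2166 transcripts lower on Avicel, cellobiose replicate 3 lay in between (0.25 to 0.75) for 52.2%, near the other cellobiose libraries (under 0.25) for 20.5% and near Avicel (0.75 or more) for 27.4%. On the 1030 higher on Avicel it lay in between for only 26.4%, near cellobiose for 32.7% and near Avicel for 40.9%. The shares also varied between the plant biomass classes, a difference that was not tested. Among transcripts higher on Avicel, the library was near cellobiose for 47.1% and near Avicel for 30.9% of the 505 higher on plant biomass. The shares were 42.6% and 16.7% of the 54 lower on plant biomass, and 13.2% and 57.7% of the 409 in neither class. Among transcripts lower on Avicel, it was near cellobiose for 64.8% of the 176 higher on plant biomass, 11.7% of the 1663 lower on plant biomass and 44.2% of the 283 in neither class. Locus881v1rpkm148.44 and Locus3084v1rpkm23.89 were among those for which it lay on the cellobiose side, and Locus308v1rpkm754.17 and Locus1135v1rpkm104.11 were not.

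The 17 other libraries were placed on the same scale, with 0 for cellobiose replicates 1 and 2 and 1 for Avicel. On the transcripts lower on Avicel, the plant biomass libraries lay between 0.11 and 0.73, and the glucose and maltose libraries lay between -0.44 and 0.095, near cellobiose or beyond it. On the transcripts higher on Avicel, the plant biomass libraries lay between 0.2 and 0.81 and the sugar libraries between 0.13 and 0.49, so these ranges overlapped. Reed canary grass replicate 1 was at 0.2 and its replicates 2 and 3 at 0.81 and 0.78, so on these transcripts libraries of 1 carbon source could differ about as widely as those of cellobiose. On the transcripts lower on Avicel, cellobiose spread the most, with replicates at -0.093, 0.093 and 0.56, and alfalfa stems came next, at 0.45, 0.11 and 0.54. In both sets, cellobiose replicates 1 and 2 helped to choose the transcripts and set the 0, and replicate 3 did not. That favours a wide spread of cellobiose, so its rank among the carbon sources is a description only. No library outside Avicel reached 1 in either set, but the transcripts were chosen on these Avicel libraries, which favours Avicel as the extreme.

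**Figure D5:**
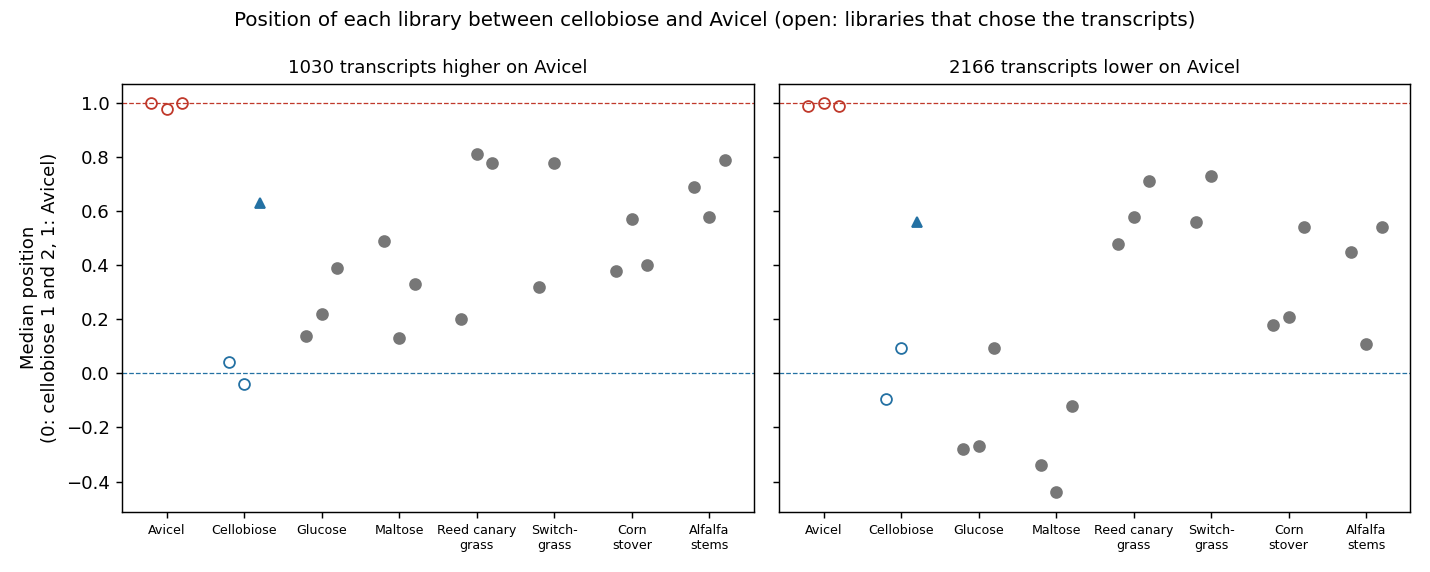
Median position of each library between cellobiose replicates 1 and 2 (0) and Avicel (1), on 1030 transcripts higher and 2166 lower on Avicel in the fit without cellobiose replicate 3; open symbols are libraries that chose the transcripts and the triangle is cellobiose replicate 3. Cellobiose replicate 3 lies at 0.63 (left) and 0.56 (right), and glucose and maltose lie at or below 0.095 on the right.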

How the data were processed

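For N. californiae the authors deposited expected counts and TPM in separate tables, with 29649 transcripts from 27671 loci in 23 libraries. RSEM is the tool listed in the submitters' processing notes, and 10.2% of the deposited expected counts were fractional (tolerance 1e-09). TPM as deposited corrects for transcript length and was not rescaled by TMM. No aligner, reference or read filter is named there. Tables of the second fungus were left out.

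Expected counts were rounded. The filterByExpr function (minimum count 10, minimum total 15; edgeR 4.0.16, R 4.3.3) retained 99.8% of counts. Libraries were scaled by TMM. A robust quasi-likelihood model with 1 mean per carbon source was fitted to all 23 libraries, with Benjamini-Hochberg adjustment over all tested transcripts. Log2 CPM used a prior count of 2. The scripts were tested on simulated data, where many 2-fold changes were missed and the share of false calls with all libraries lay somewhat above the 0.05 set for the adjusted p. Plant biomass classes came from a separate fit of the 17 other libraries.

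Named transcripts were called with and without cellobiose replicate 3, did not overlap between groups, averaged 10 CPM or more where higher, held 3 counts or more in all where lower, were the only version of their locus and did not end in PRE. Of these, the largest fold change and the largest TPM difference in each direction are printed. Members, lists and rules were chosen with earlier results of these data known. Alternatives were DESeq2 1.42.0, other scalings, no filter, a 2-fold threshold, the 6 libraries alone, a replicate block, sums per locus and each library left out.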

Additional observations from a re-analysis of the deposited data

How the results depend on the processing

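Of the 194 recomputed values, 133 kept their direction and their side of the threshold or range. For all calls, higher calls and lower calls in that order, the 6 compared libraries alone, with fewer transcripts tested, gave 1957, 641 and 1316, and leaving out 1 library gave 1515 to 3810, 522 to 1406 and 993 to 2404. Library size alone gave 438 higher and 3210 lower, and a 2-fold threshold 549 higher. Higher calls numbered 1926 without replicate 3 of cellobiose, glucose and maltose together, 1884 with the 5 compared libraries other than cellobiose replicate 3 and 1630 with DESeq2 without it, all 3 chosen after seeing the data.

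The class higher on plant biomass held 310 rises with library size alone, 371 with the 6 libraries, 994 without replicate 3 of the 3 sugars, 899 with the 5 libraries and 335 to 731 with 1 library left out. Its median of 0.21 became -0.12, 0.14 and 0.39 under the first 3 of these, 0.29 with DESeq2 without cellobiose replicate 3, 0.31 with the class past 2-fold and 0.15 to 0.29 with 1 library left out. The class lower on plant biomass held 810 falls with the 6 libraries and 557 to 1735 with 1 library left out. Its median of -0.96 became -1.28 with library size alone, -0.45 with the 6 libraries, -1.69 with the class past 2-fold and -1.1 to -0.63 with 1 library left out. With TPM in place of counts, the differences in share between Avicel and cellobiose were 2.81 and -1.9 percentage points in place of 5.22 and -3.65. The median position became a trimmed mean of 0.54 for cellobiose replicate 3 and -0.078 for cellobiose replicate 1. Loci with opposite versions numbered 2 past 2-fold and 0 to 8 with 1 library left out. The cause of these moves was not tested.

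Locus308v1rpkm754.17 lost its call with a log2 fold change of 2.31 with library size alone, 2.69 without the filter and 2.59 with the 6 libraries, and had 2.26 to 3.96 with 1 library left out. Locus1135v1rpkm104.11 had -2.14 to -1.19 with 1 library left out.

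Same-numbered Avicel and cellobiose libraries did not deviate together (correlations of 0.039, -0.0091 and 0.015), so the numbers were not taken as pairs. With the replicate block 1112 were called higher and 2196 lower. The depth limits calls among transcripts with few counts.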

Other observations

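Few loci had versions called in opposite directions. Of 697 loci with more than 1 tested version, 20 had every tested version called higher on Avicel and 23 had every one called lower. In 4 loci 1 version was called higher and another lower, and in 8 without cellobiose replicate 3, the 4 among them. Reads shared between versions make the split of their counts uncertain. Of 233 tested identifiers ending in PRE, whose meaning no source used here gives, 8 (3.43%) were called higher and 13 (5.58%) lower, against 6.7% and 13.8% of all tested transcripts.

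Called transcripts were of ordinary length. Relative effective length was read for 85.1% of the transcripts called higher, 63.7% of those called lower and 57.9% of those not called, from libraries with at least 50 counts. Its median was 0.978, 1.04 and 1 in that order, and it differed between libraries by a median SD of 0.015 on the log2 scale.

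Fewer transcripts were detected on Avicel than in 2 of the 3 cellobiose libraries. At a common depth of 4833952 counts, 17432, 17468 and 17583 transcripts had a count in the Avicel libraries, against 18624, 17359 and 18913 in cellobiose replicates 1, 2 and 3, so the groups overlapped.

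The deviation of cellobiose replicate 3 from its group had counterparts on other carbon sources. Across transcripts, its difference from the mean of replicates 1 and 2 correlated at 0.45 with the same difference on glucose, 0.37 on reed canary grass, 0.26 on alfalfa stems, 0.21 on maltose and 0.11 on corn stover, but at 0.015 on Avicel. Transcripts are not independent replicates, and the labels name no batch.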
